A study of Mus musculus with 6 samples.

Results

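The p53 pathway genes described here are 31 genes, namely Trp53 itself, its ubiquitin ligase Mdm2 and 29 genes that p53 is known to switch on or that act with them. They were taken from a list of names that was chosen with earlier results of these data known. Every array probe whose transcript accession matched a listed gene was used. The listed genes are 31 of the 20659 genes named on the array and were read by 38 of its 39429 probes. Of these 38 probes 36 were among the 24661 that were tested, and each of the 31 genes had at least 1. A probe was tested if its signal was well above background on all 3 arrays of at least 1 group. The probes not tested were a second probe of Trp53i11, above background on 0 of the 6 arrays, and a second probe of Rrm2b, above it on 1 array of each group.

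The 6 samples were total RNA of C2C12, a mouse myoblast line that stops dividing and fuses into myotubes once it is induced to differentiate. All cells carried an siRNA and were taken after 2 days of differentiation. The siRNA was a control (si-NC) in 3 samples and targeted a long noncoding RNA, lncMGPF, in the other 3 (si-lncMGPF). Whether the replicates are separate cultures is not said in the labels. A p-value thus reflects the spread of these samples alone, which may be technical, and all cells are of 1 line. Signals were read on 1-colour Agilent arrays and are given as log2 normalised signal, the log2 of a probe's signal over the 75th percentile of its array. A value of 0 is thus the 75th percentile, and levels are compared only within a probe, since probes differ in brightness.

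The transcription factor p53 is held at a low level by Mdm2, which marks it for degradation. DNA damage and other stresses free it from Mdm2, and it then raises genes that arrest the cell cycle, repair DNA, change metabolism or start cell death, together with Mdm2 itself as a feedback. Transcript levels of its targets are therefore a common readout of p53 activity, whereas p53 protein is controlled mostly after translation. In differentiating C2C12 cultures most cells leave the cell cycle and some die, so both the arrest and the death branch of the pathway bear on this stage.

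p53 binds pairs of a short motif, here called the p53 decamer (purine, purine, purine, C, A or T, A or T, G, then 3 pyrimidines). To show where this motif stands in the listed genes, the 250 bases before each transcript start were searched on the gene's strand. The motif reads alike on both strands. RefSeq promoters (build GRCm38.p6) were at hand for 23 of the 31 genes, in 28 windows because some genes have several starts. Pmaip1, Tnfrsf10b, Perp, Trp53inp1, Zmat3, Ddb2, Xpc and Rrm2b had no entry. A decamer was found in 9 of the 28 windows (32.1%), each of a different gene, against 2341 of 32851 windows of all genes (7.13%). Aen, Polk and Sesn1 each had another window, at another start, without a match. A pair of decamers at most 13 bases apart was found in 0 of the 28 windows and in 21 of the 32851 (0.0639%). These are matches of letters, not measured binding, and the p53 elements of some targets, such as Mdm2, are known to lie in the first intron, outside this window. The 9 matches are shown 5′ to 3′ with up to 20 bases on either side, the decamer in capitals.
Trp53, chr11:69580264-69580313, plus strand: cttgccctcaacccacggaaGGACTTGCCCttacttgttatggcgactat
Mdm2, chr10:117710915-117710964, minus strand: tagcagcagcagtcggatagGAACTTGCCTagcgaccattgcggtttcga
Bax, chr7:45467070-45467119, minus strand: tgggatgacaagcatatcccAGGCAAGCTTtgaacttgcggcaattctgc
Aen, chr7:78895917-78895966, plus strand: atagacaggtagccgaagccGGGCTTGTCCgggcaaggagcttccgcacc
Ei24, chr9:36797335-36797364, minus strand: ccagctgccccgtgcggcccGGGCATGCCC
Ccng1, chr11:40755442-40755491, minus strand: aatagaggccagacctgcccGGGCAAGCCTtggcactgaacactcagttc
Gadd45a, chr6:67037418-67037467, minus strand: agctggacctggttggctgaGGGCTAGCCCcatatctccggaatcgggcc
Polk, chr13:96519389-96519437, minus strand: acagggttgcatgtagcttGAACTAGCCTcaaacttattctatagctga
Sesn1, chr10:41887246-41887295, plus strand: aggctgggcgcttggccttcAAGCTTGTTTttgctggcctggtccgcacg

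The match of Ei24 ends 0 bases before the start site, that of Gadd45a 30 bases and that of Trp53 65 bases before it. Those of Mdm2, Bax and Ccng1 end 176, 191 and 175 bases before it. Trp53i11 had no match in its window, chr2:93187298-93187547 on the plus strand. The window is shown whole because this gene had the largest difference between the groups among the listed genes. That difference did not pass the threshold given below.
Trp53i11: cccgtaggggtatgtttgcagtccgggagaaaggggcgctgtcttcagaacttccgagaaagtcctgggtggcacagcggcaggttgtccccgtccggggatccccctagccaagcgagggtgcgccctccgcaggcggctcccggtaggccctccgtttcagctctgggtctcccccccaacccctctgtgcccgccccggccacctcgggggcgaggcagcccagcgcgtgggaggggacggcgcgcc

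By the scan identifiers, slide 1 held all 3 si-NC arrays together with the first si-lncMGPF replicate, and slide 2 held the other 2 replicates of si-lncMGPF, so slide and group are partly confounded. The 75th percentile of the signal was 688.2 to 930.7 intensity units in si-NC and 492.1 to 923 in si-lncMGPF, and 64.13% to 65.28% of probes were well above background on slide 1 against 56.93% and 57.3% on slide 2. Arrays of the same group correlated at 0.996 to 0.999 on slide 1 or within slide 2. The si-lncMGPF arrays correlated at 0.988 to 0.99 between slides. Arrays of different groups correlated at 0.992 to 0.995 on slide 1 and at 0.989 to 0.992 between slides. The si-lncMGPF arrays were thus less alike across slides than arrays of different groups on slide 1. No probe was tied to lncMGPF by the names used here, so the level of lncMGPF itself was not checked. Differences are therefore also given for si-lncMGPF replicate 1 alone, which shares a slide with the controls, and for replicates 2 and 3 against the same controls. Of 10 markers of myoblasts and myotubes, 9 were above background on all 6 arrays, including Myod1, Myog, Des and Ckm, and Actn2 was above it on 5. Summed, these 10 markers stood at 10000 to 10600% of the 75th percentile in si-NC and at 8290 to 10600% in si-lncMGPF. That sum is led by the brightest probes. Taken singly, their log2 changes ran from -0.74 (Actn2, lower in si-lncMGPF without overlap) to 0.17, with a median of -0.05. Of these, 0 had a limma adjusted p below 0.05. Of 12 markers (11 on the array) of endothelial cells, leukocytes, adipocytes and epithelial cells, 4 were above background on all arrays (Pecam1, Kdr, Cd3e and Krt5). For each of these 4 genes this rests on 1 probe. Pecam1 and Cd3e had no other probe, and the other probe of Kdr and of Krt5 was not well above background on any array. Ptprc, the defining marker of leukocytes, was above background on 3 si-NC and 2 si-lncMGPF arrays, and Cdh1, of epithelial cells, on 2 and 1. Cdh5, Adipoq and Epcam were not well above background on any. The part of these markers in the differences was not tested. In RNA of a whole culture, fewer cells that express a gene and less RNA per cell cannot be told apart.

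The comparison of si-lncMGPF with si-NC asks whether p53 and its targets are expressed at other levels when lncMGPF is knocked down. No p53 pathway gene passed the threshold. By limma, with Benjamini-Hochberg adjustment over all tested probes, 0 of 36 probes and 0 of 31 genes had an adjusted p below 0.05, where 26 of 24661 probes passed (0.105%), 7 higher and 19 lower in si-lncMGPF. With quantile normalization that split was 1 higher and 5 lower. Of the 14265 tested genes 21 passed (0.147%). An unadjusted p below 0.05 was reached by 6 of 36 probes, near the 15.8% of all tested probes. They belonged to Trp53i11, Ccng1, Btg2 and Polk, each higher in si-lncMGPF (6.4% of all tested probes were), and to Rrm2b and Gadd45a, both lower (9.43%). With 1 probe per gene, the probe with the highest mean signal, 5 of 31 genes had such a p, against 14.2% of 14265 genes. With array weights 15 of the 31 genes passed, as did 13394 of the 24661 tested probes. Without si-lncMGPF replicate 1, 3 of the 31 genes passed (Trp53i11, Gadd45a and Rrm2b), as did 4105 of the 24661 tested probes. The median log2 change of the 31 genes was 0.032, beside 0.02 over all tested genes, and the median size of the change was 0.13 in both. Among the 31 genes 19 had a positive change, where 54% of all genes did.

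**Figure D1:**
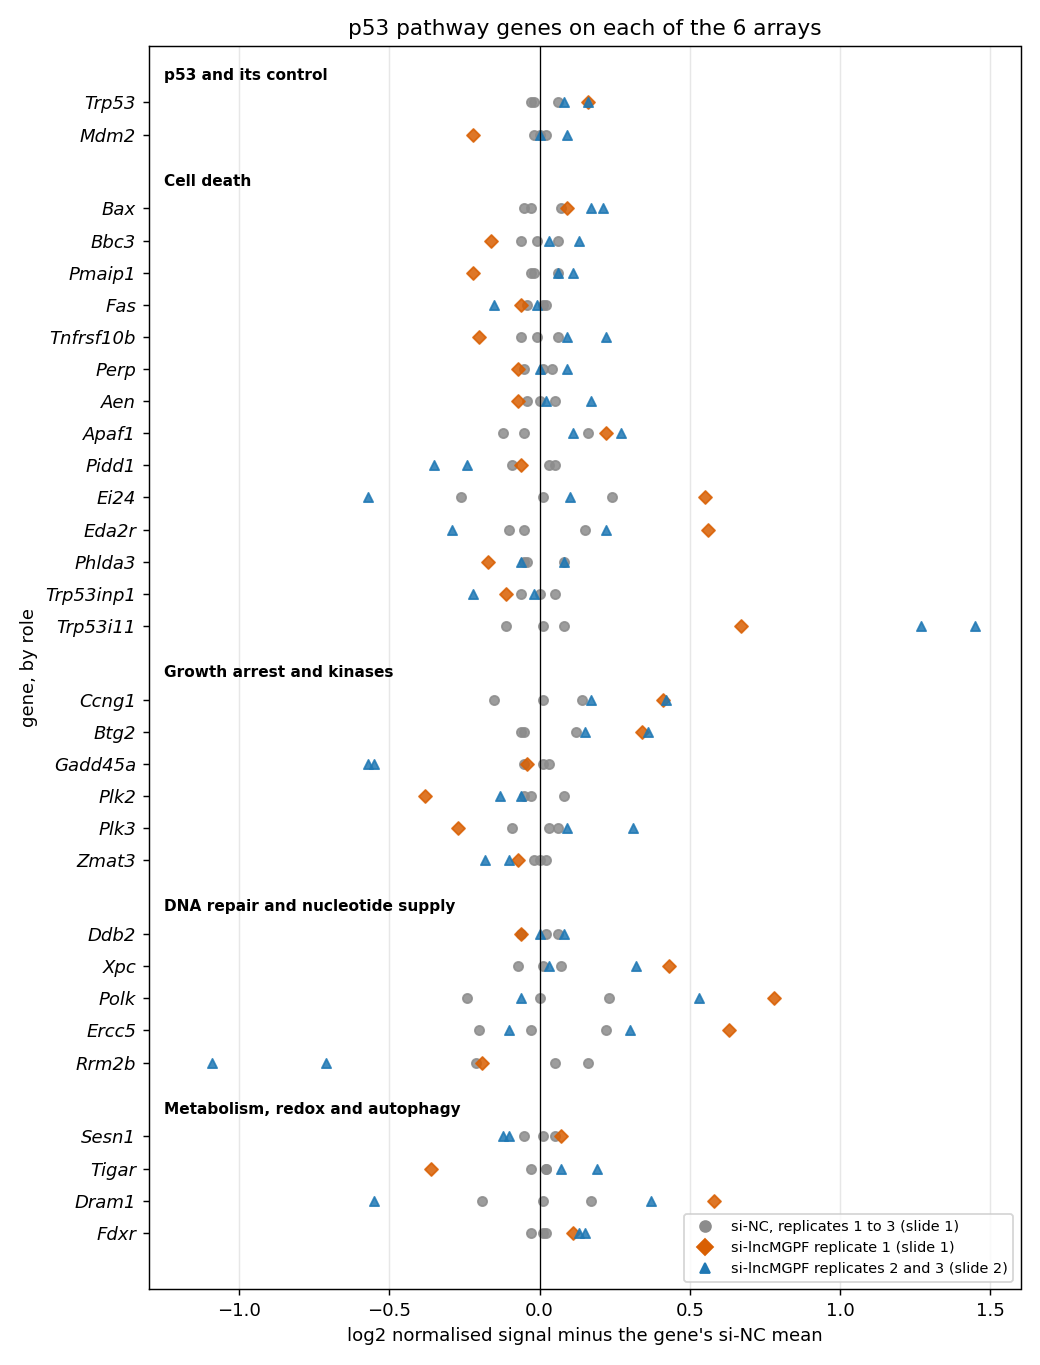
Log2 normalised signal of each p53 pathway gene on each of the 6 arrays, minus that gene's si-NC mean (x axis), with genes in rows by role. Grey circles are si-NC, orange diamonds the si-lncMGPF array on slide 1 and blue triangles the si-lncMGPF arrays on slide 2. Most genes lie near 0, Trp53i11 lies to the right on all 3 si-lncMGPF arrays, and Rrm2b and Gadd45a lie farthest to the left on the slide 2 arrays.

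Trp53 and Mdm2 were close in level between the groups. In the order of replicates 1, 2 and 3, which is kept below, Trp53 read -2.23, -2.14 and -2.22 in si-NC. In si-lncMGPF it read -2.04, -2.12 and -2.04. All 3 si-lncMGPF arrays were thus above all si-NC arrays, by a small margin, a log2 change of 0.13 (SE 0.08, 95% interval -0.07 to 0.33, limma adjusted p = 0.463). The difference was 0.16 for the si-lncMGPF array on slide 1 and 0.12 for those on slide 2. Mdm2, both the brake on p53 and one of its targets, read 3.02, 3.0 and 2.98 in si-NC and 2.78, 3.09 and 3.0 in si-lncMGPF. Replicate 1 of si-lncMGPF was below the controls and replicate 2 above them. The log2 change of Mdm2 was -0.04 (SE 0.11, 95% interval -0.30 to 0.21, limma adjusted p = 0.849), with a difference of -0.22 on slide 1 and 0.04 on slide 2.

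Of the 14 genes of the cell death branch, Trp53i11 had the largest difference, and it was the member with the smallest p. Trp53i11 is named for its induction by p53. It was read by 1 probe above background (A_55_P1955632), at -1.05, -1.12 and -1.24 in si-NC. In si-lncMGPF the same probe read -0.46, 0.32 and 0.14. The lowest si-lncMGPF array was above the highest si-NC array, and the slide 2 arrays were higher than the slide 1 array of the same group. The mean was -1.13 ± 0.09 in si-NC (SD, n = 3) and 0.0014 ± 0.41 in si-lncMGPF (SD, n = 3), a log2 change of 1.14 (SE 0.20, 95% interval 0.65 to 1.62). This is a 2.2-fold higher signal, which did not pass the threshold (limma unadjusted p = 0.000934, adjusted p = 0.141).

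By its p that probe ranked 162 of the 24661 tested probes, and by the size of its change 295. A log2 change of at least 1 in size was seen in 439 tested probes (1.78%), and among the 36 probes of p53 pathway genes in this 1. The difference of Trp53i11 from si-NC was 0.68 on slide 1 and 1.36 on slide 2, so it had the same direction on both. Without si-lncMGPF replicate 1 it passed (limma adjusted p = 0.00255), as did 4105 of the 24661 tested probes. In that fit group and slide coincide and cannot be told apart. With slide as a fixed block, which rests on the slide 1 difference, it did not pass (limma adjusted p = 0.179). Its second probe (A_55_P1955637) was not well above background on any of the 6 arrays, so it gives no second reading of the gene.

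**Figure D2:**
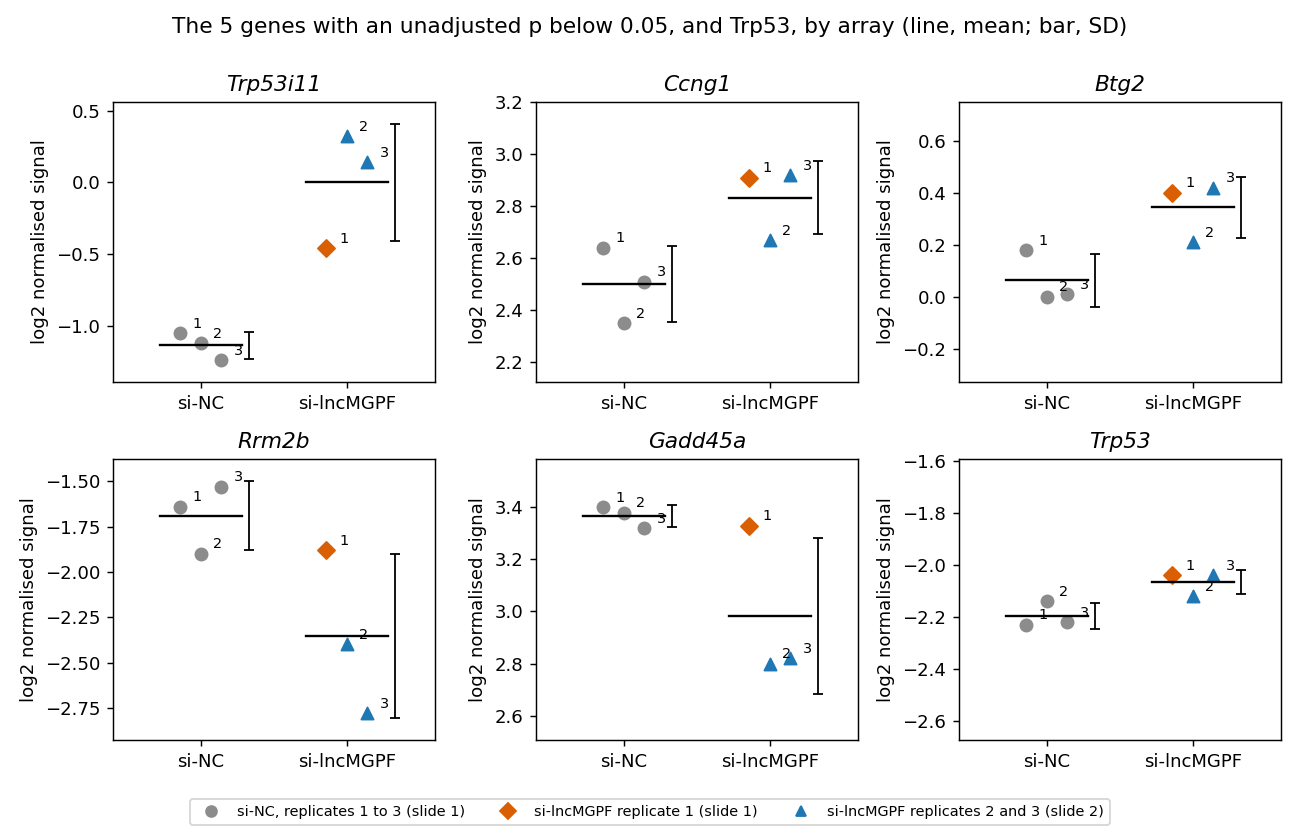
Log2 normalised signal (y axis) by array for the 5 p53 pathway genes with an unadjusted p below 0.05 and for Trp53. Numbers beside points are replicates, horizontal lines are group means and bars are SD (n = 3). The groups do not overlap for Trp53i11, Ccng1, Btg2 and Trp53, while si-lncMGPF replicate 1 lies within the si-NC range for Rrm2b and Gadd45a.

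Bax, which forms pores in the mitochondrial outer membrane, was the other death gene whose groups did not overlap. It read 2.55, 2.43 and 2.45 in si-NC and 2.57, 2.69 and 2.65 in si-lncMGPF. The lowest si-lncMGPF array was 2.57 and the highest si-NC array 2.55, so the groups nearly touch, and the log2 change was 0.16 (SE 0.09, limma adjusted p = 0.4), 0.09 on slide 1 and 0.19 on slide 2. Over all tested genes the groups did not overlap in 22.3%, and this was so for 8 of the 31 genes, 6 higher and 2 lower in si-lncMGPF, beside 9.62% higher and 12.6% lower over all genes. Bbc3 and Pmaip1, also called Puma and Noxa, had log2 changes of 0.0028 (SE 0.10) and -0.02 (SE 0.11). Both were below all si-NC arrays on si-lncMGPF replicate 1, a difference of -0.16 and -0.23 from the si-NC mean, and both stood 0.08 above it on slide 2.

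The death receptors had no unadjusted p below 0.05. Fas read -1.04, -0.99 and -0.98 in si-NC and -1.06, -1.15 and -1.01 in si-lncMGPF, a log2 change of -0.08 (SE 0.08), -0.06 on slide 1 and -0.08 on slide 2. Tnfrsf10b, the receptor of the death ligand TRAIL, had 0.04 (SE 0.13), with -0.19 on slide 1 and 0.16 on slide 2. Eda2r, a receptor of ectodysplasin A2, had 0.16 on its brighter probe (SE 0.22) and -0.13 on the dimmer (SE 0.24), which was above background on 1 of 3 si-lncMGPF arrays. Both Eda2r probes were higher than the si-NC mean on slide 1 (0.56 and 0.42) and lower on slide 2 (-0.04 and -0.41). Of the proteins that carry out or adjust cell death, Apaf1, the scaffold of the apoptosome, had 0.20 (SE 0.11), with 0.22 on slide 1 and 0.19 on slide 2. Pidd1, the scaffold that activates caspase 2, had -0.21 (SE 0.11). Pidd1 differed on slide 2 (-0.29) and hardly on slide 1 (-0.06).

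The other genes of the death branch had fitted log2 changes within 0.12 of 0. The nuclease gene Aen had log2 changes of 0.04 and 0.0042 on its 2 probes, and the desmosome and membrane protein gene Perp had 0.01. On slide 1 these 3 probes stood between -0.08 and -0.07, and on slide 2 between 0.05 and 0.10. Phlda3, an inhibitor of the kinase AKT, had -0.05, with -0.17 on slide 1 and 0.01 on slide 2. Trp53inp1, a stress protein that acts in autophagy and cell death, had -0.12 and -0.11 on its 2 probes, at -0.11 and 0.04 on slide 1 and -0.12 and -0.19 on slide 2. Ei24, a protein of the endoplasmic reticulum, had a fitted 0.03 made of opposite differences, 0.56 on slide 1 and -0.23 on slide 2. None of these 5 genes had an unadjusted p below 0.05 (limma, adjusted p from 0.537 to 0.984). The interval of Ei24 was wide, from -0.65 to 0.72.

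**Figure D3:**
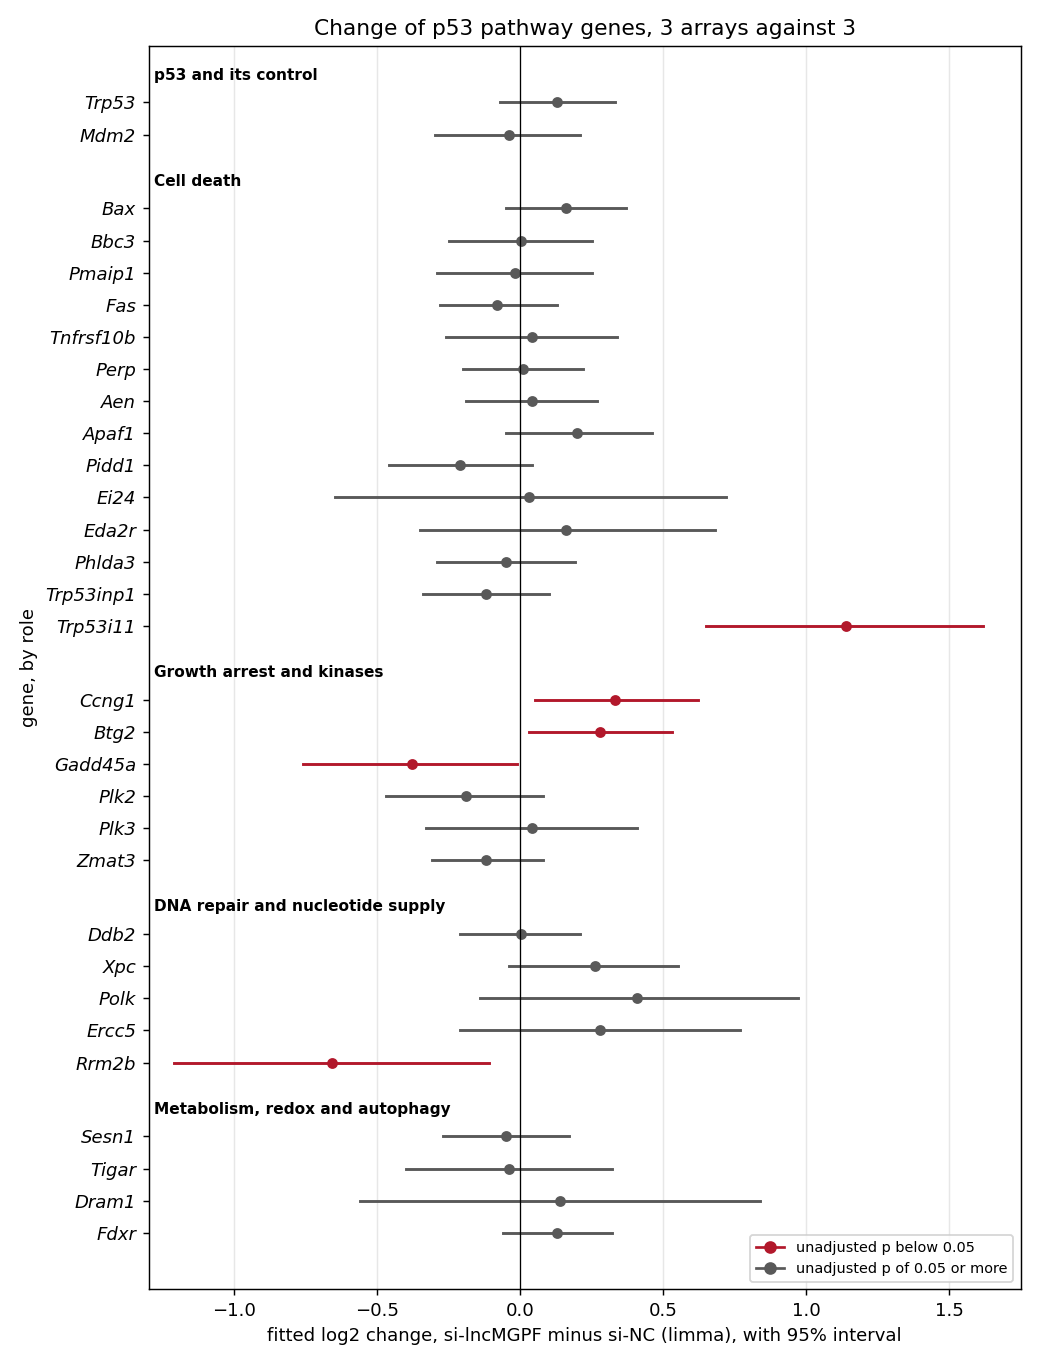
Fitted log2 change of each p53 pathway gene, si-lncMGPF minus si-NC (x axis), with its 95% interval from limma, genes in rows by role. Red marks an unadjusted p below 0.05, which 5 of 31 genes had, and 0 passed after adjustment over all tested probes.

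Growth arrest genes, 6 in number, had differences in both directions, and none passed the threshold. Ccng1, cyclin G1, a long-known p53 target that acts on Mdm2, read 2.64, 2.35 and 2.51 in si-NC and 2.91, 2.67 and 2.92 in si-lncMGPF. The groups did not overlap, and the log2 change was 0.33 (SE 0.12, 95% interval 0.05 to 0.62, limma adjusted p = 0.268). The difference was 0.41 on slide 1 and 0.30 on slide 2. Btg2, an antiproliferative protein that promotes shortening of mRNA tails, read 0.18, -0.00067 and 0.01 in si-NC and 0.40, 0.21 and 0.42 in si-lncMGPF. Here too all si-lncMGPF arrays were above all si-NC arrays, with a log2 change of 0.28 (SE 0.10, limma adjusted p = 0.275), 0.34 on slide 1 and 0.25 on slide 2. For both genes the difference was thus present on the slide that the groups share, which holds 1 si-lncMGPF array. That array lay outside the si-NC range for 78.6% of all tested genes.

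Gadd45a, a stress sensor that binds cyclin-dependent kinase 1 and activates stress kinases, was lower on the slide 2 arrays. It read 3.40, 3.38 and 3.32 in si-NC, 3.33 on si-lncMGPF replicate 1 and 2.80 and 2.82 on replicates 2 and 3. Replicate 1 lay inside the si-NC range. The log2 change over all arrays was -0.38 (SE 0.16, limma adjusted p = 0.306), made of -0.04 on slide 1 and -0.56 on slide 2. Gadd45a passed without si-lncMGPF replicate 1 (limma adjusted p = 0.0089), as did 4105 of all tested probes. In that fit slide and knockdown cannot be told apart.

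Plk2 and Plk3, kinases that answer to stress and growth signals, did not pass the threshold. Plk2 read 3.46, 3.59 and 3.48 in si-NC and 3.13, 3.45 and 3.38 in si-lncMGPF, all lower, with a log2 change of -0.19 (SE 0.11, limma adjusted p = 0.425), -0.39 on slide 1 and -0.10 on slide 2. Plk3 was below the controls on si-lncMGPF replicate 1 (-0.27) and above them on slide 2 (0.20), which gave 0.04 over all arrays (SE 0.16). Zmat3, an RNA-binding protein that shapes splicing downstream of p53, read 1.12, 1.1 and 1.14 in si-NC and 1.05, 1.02 and 0.94 in si-lncMGPF. Its groups did not overlap, but the change was small, -0.12 (SE 0.08, limma adjusted p = 0.491), -0.08 on slide 1 and -0.14 on slide 2.

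Among the DNA repair genes, Rrm2b, the p53-inducible subunit of ribonucleotide reductase, had the largest difference. It read -1.64, -1.90 and -1.53 in si-NC and -1.88, -2.40 and -2.78 in si-lncMGPF. Replicate 1 of si-lncMGPF lay within the si-NC range and the slide 2 arrays below it. The log2 change was -0.66 (SE 0.23, 95% interval -1.21 to -0.11, limma adjusted p = 0.264), a 1.58-fold lower signal. It was -0.19 on slide 1 and -0.90 on slide 2. Without si-lncMGPF replicate 1 the gene passed (limma adjusted p = 0.025), as did 4105 of all tested probes, again with slide and group confounded. The signals of negative control spots were 20.1 to 21.8 on slide 1 and 37.3 and 42.5 on slide 2, and their part in the slide 2 values was not tested.

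Polk, a DNA polymerase that copies past damaged bases, had 2 tested probes and both were higher in si-lncMGPF. The dimmer probe read -4.29, -4.38 and -4.12 in si-NC and -3.98, -3.89 and -3.97 in si-lncMGPF, without overlap. Its log2 change was 0.32 (SE 0.10, limma unadjusted p = 0.0169, adjusted p = 0.243), at 0.29 on slide 1 and 0.33 on slide 2. The brighter probe read -2.73, -3.20 and -2.96 against -2.18, -3.02 and -2.43, with overlap, and had 0.41 (SE 0.23, limma adjusted p = 0.412). Its difference was 0.78 on slide 1 and 0.23 on slide 2, which is also the value without si-lncMGPF replicate 1. Xpc, which detects distorted DNA, had 0.26 (SE 0.12), with 0.42 on slide 1 and 0.17 on slide 2. Ercc5, the nuclease that cuts beside the lesion, had 0.28 (SE 0.20), with 0.63 on slide 1 and 0.10 on slide 2. For Xpc, Ercc5 and the brighter probe of Polk the difference was larger on si-lncMGPF replicate 1 than on the slide 2 arrays. It was not for the dimmer probe of Polk, at 0.29 and 0.33. Ddb2, which recognises ultraviolet damage, read between -3.31 and -3.17 on all 6 arrays and had 0.0015 (SE 0.09), with -0.06 on slide 1 and 0.03 on slide 2.

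In the metabolic branch no gene had an unadjusted p below 0.05 on any probe. Fdxr, the mitochondrial ferredoxin reductase, read -1.45, -1.40 and -1.41 in si-NC and -1.31, -1.29 and -1.27 in si-lncMGPF. These groups did not overlap and their spread was narrow (SD 0.03 and 0.02), with a log2 change of 0.13 (SE 0.08, limma adjusted p = 0.441), 0.11 on slide 1 and 0.14 on slide 2. Sesn1, a sestrin that restrains mTORC1, had -0.05 (SE 0.09), with 0.07 on slide 1 and -0.11 on slide 2. Tigar, which diverts glucose from glycolysis, had -0.04 on the brighter probe (-0.36 on slide 1, 0.13 on slide 2) and -0.24 on the dimmer (-0.46 and -0.14). The dimmer probe of Tigar read -1.49, -1.46 and -1.45 in si-NC and -1.92, -1.5 and -1.7 in si-lncMGPF, all lower, and did not pass (SE 0.12, limma adjusted p = 0.374). Dram1, a lysosomal regulator of autophagy, spread widely in si-lncMGPF at -3.48, -4.61 and -3.69, around the si-NC values of -3.89, -4.25 and -4.05. Its log2 change was 0.14 (SE 0.29), with 0.59 on slide 1 and -0.08 on slide 2.

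The spread within si-lncMGPF was larger than within si-NC for 27 of the 31 genes, as it was for 85.1% of all tested genes. The median SD was 0.0628 in si-NC and 0.147 in si-lncMGPF, against 0.0698 and 0.187 over all tested genes. The si-lncMGPF array on slide 1 lay outside the si-NC range for 27 of the 31 genes, where 78.6% of all tested genes did so. Both slide 2 arrays lay outside it on the same side for 16, against 54.4% of all. Of the 31 genes, 17 had differences of the same sign on the 2 slides and 14 of opposite sign, where 7377 of 14265 tested genes had the same sign. The median difference was -0.056 on slide 1 and 0.082 on slide 2, beside -0.073 and 0.057 over all tested genes. The medians of the list thus lay near those of all tested genes on either slide. The member farthest from the median of all tested genes was Polk on slide 1, at 0.78 on its brighter probe, and Trp53i11 on slide 2, at 1.36.

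**Figure D4:**
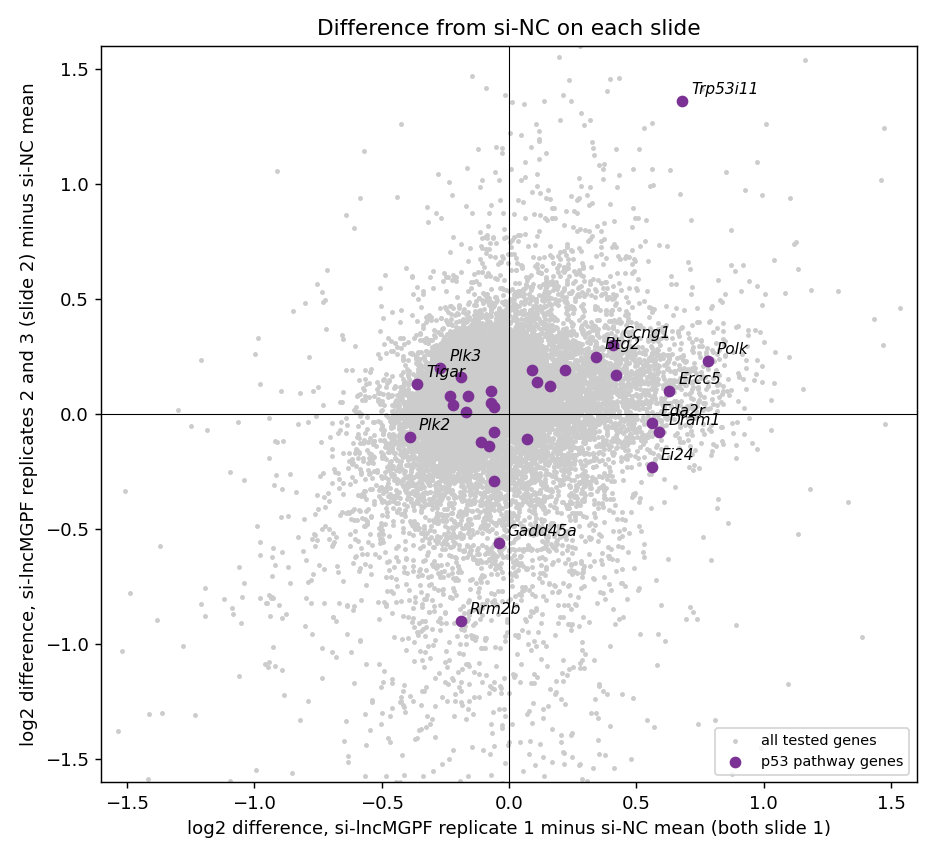
Difference of si-lncMGPF replicate 1 from the si-NC mean on slide 1 (x axis, log2) against the difference of si-lncMGPF replicates 2 and 3 on slide 2 from the same si-NC mean (y axis, log2). Purple points are the 31 p53 pathway genes and grey points all 14265 tested genes, of which 110 lie outside the axes. Trp53i11, Ccng1 and Btg2 are positive on both axes, while Ei24, Eda2r and Dram1 are positive on slide 1 and negative on slide 2.

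In 6 genes the arrays stood in the same order. Dram1, Eda2r, Ei24, Ercc5, Polk and Xpc (the brighter probe where there are 2) were highest on replicate 1, then 3, then 2, in si-NC and again in si-lncMGPF. This order was noticed after the values were seen. It held for 6 of the 31 genes (19.4%), beside 10.6% of all tested genes. The dimmer tested probes of Eda2r and Polk did not stand in this order in si-NC. A mean signal below the 75th percentile was seen in all 6 and in 10 of the other 25 members. The 6 were chosen for this order, so it is given as a description. All of them but Xpc, together with Rrm2b, had the 6 widest intervals of the list.

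Other genes of the pathway, 62 in a list of regulators, partners and further targets, were read alongside. Of these 59 were tested, and 0 passed (limma, adjusted over all tested probes). An unadjusted p below 0.05 was reached by 9 of 59, 5 higher and 4 lower, where 6.04% of all tested genes were higher and 8.14% lower, and the median log2 change was 0.029. Cdkn1a, the p21 inhibitor of cyclin-dependent kinases and the best-known p53 target, read 3.61, 3.69 and 3.66 in si-NC and 3.77, 3.84 and 3.95 in si-lncMGPF. All si-lncMGPF arrays were higher, by 0.20 on the log2 scale (SE 0.09, limma adjusted p = 0.329), 0.12 on slide 1 and 0.25 on slide 2. A dimmer probe of Cdkn1a had 0.08. Mdm4, the partner of Mdm2 in restraining p53, had 0.14 on its brighter probe (SE 0.26; 0.47 on slide 1, -0.02 on slide 2) and -0.02 on the dimmer.

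The smallest p among the higher genes of that list belonged to Igfbp3, a secreted binding protein of insulin-like growth factors, and to Sesn2, a relative of Sesn1. Igfbp3 read -4.15, -4.33 and -4.28 in si-NC and -2.63, -3.42 and -2.56 in si-lncMGPF. That is a log2 change of 1.39 (SE 0.23, limma adjusted p = 0.131), with 1.63 on slide 1 and 1.27 on slide 2. Sesn2 had 0.70 (SE 0.21, limma adjusted p = 0.233), with 0.94 on slide 1 and 0.58 on slide 2. Among the lower genes these were Gls2, a glutaminase, at -0.24 (SE 0.08, limma adjusted p = 0.262), and Gadd45b, a relative of Gadd45a, at -0.22 (SE 0.08, limma adjusted p = 0.271). On slide 1 and slide 2 Gls2 stood at -0.20 and -0.26, and Gadd45b at -0.21 and -0.23.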

How the data were processed

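Total RNA labelled with Cy3 was hybridised to 1-colour Agilent arrays, 3 per group, per the labels. Intensity values in the deposited scanner tables were background-subtracted and detrended by Feature Extraction 11.0.1.1, per the file headers, with no scaling between arrays. The series table equalled that signal at 44397 of 44397 spots on each array, so its direction and scale are those of the scanner tables. Between 117 and 134 outlier spots per array were dropped; 0 were saturated. From each log2 signal the array's 75th percentile was subtracted. Accessions were matched without version to a RefSeq table (27234 of 39429 probes named) of another build than the array's, used for names alone; proteins and probe sequences were not used. The 2 groups were tested by limma 3.58.1 under R 4.3.3 (lmFit, eBayes, two-sided, no covariate), adjusted over 24661 probes; the script was checked on simulated data. The brightest tested probe stood for a gene. The number of arrays limits precision.

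The members, lists and tests were chosen with earlier results of these data known. Named were all 31 members and, of the other list, Cdkn1a, Mdm4, genes past the threshold and the 2 with the smallest p per direction. Alternatives were quantile and median scaling, normexp, other filters, array weights, a robust prior with an intensity trend, blocks by slide or replicate number, slide 1 alone, the series table, averaging the probes of a gene, and dropping each array. Figures used matplotlib 3.10.9.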

Additional observations from a re-analysis of the deposited data

How the results depend on the processing

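No p53 pathway gene passed under quantile normalization, median centring, normexp, other filters, a trend with a robust prior, slide as a fixed or random block, slide 1 alone, the replicate block, the series table or the mean of probes. The exceptions were array weights (17 probes and 15 genes of the pathway, 28 other p53 pathway genes, 13394 of all probes) and leaving out 1 array. The weights were 9.98 for si-NC replicate 3 and 0.109 for si-lncMGPF replicate 1, so that fit rests mainly on few arrays. Weights by REML, chosen after seeing the data and stopped before convergence, called 0 pathway genes and 4 of all probes. The REML weights were 721.02 for si-NC replicate 3 and 0.0 after rounding for si-lncMGPF replicate 3, so that fit too rests mainly on few arrays. Leaving out 1 array called 0 to 3 pathway probes, 0 to 3 pathway genes, 0 to 6 other p53 pathway genes and 0 to 4105 of all probes, the highest counts coming without si-lncMGPF replicate 1, where slide and group are the same split. Of all probes 0 passed without any 1 of the si-NC arrays or without si-lncMGPF replicate 3, and 4 without replicate 2. Those 3 were Trp53i11 (1.36), Gadd45a (-0.56) and Rrm2b (-0.90). Of all probes 6 passed with quantile normalization, 0 without a filter on dim probes, 10 with slide as a fixed block, 1 on slide 1 alone and 0 with the replicate block, against 26. Replicate numbers gave correlations of deviations of 0.293, 0.449 and -0.0686, and 4 of 6 samples correlated best with their own number. Whether samples of the same number share more than that number was not tested. The median change of the 31 genes was -0.06 with slide as a fixed block or on slide 1 alone and -0.05 with a random block. Of 620 alternative values of single genes, 54 differed in sign from the main value, in 14 genes. In 1 of them an interval excluded 0, that of Plk3 on slide 1 alone (-0.27), a fit with 1 si-lncMGPF array, assumed to vary like the si-NC arrays. Trp53i11 kept its sign throughout, from 0.68 to 1.36 (limma adjusted p from 0.0005 to 0.645). Dim probes limit what the slide 2 arrays can show, since fewer were well above background there.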
